A study of Mus musculus with 24 samples.

Results

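Resting mouse macrophages in which the co-repressor gene Ctbp1 was targeted by siRNA were compared with cells given control siRNA. The comparison holds 6 of the 24 samples of the study, chosen by their labels: 3 with Ctbp1 siRNA and 3 with control siRNA, all in vehicle (PBS). The cells were bone marrow-derived macrophages (BMDMs), primary macrophages grown from the marrow of male C57BL6/N mice aged 6 to 12 weeks with L929 cell supernatant as the source of growth factor. An siRNA is a short RNA duplex that lowers the mRNA of its target, and the study used it in BMDMs of 3 kinds (control, Ctbp1 and Ctbp2 siRNA), each with vehicle or with 100 ng/ml lipopolysaccharide (LPS) for 4 h. These make 18 BMDM libraries in 6 groups of 3, with replicates numbered 1, 3 and 4. The other 6 samples, all given LPS, are the macrophage line J774.1, either wildtype or with a label of double knockout of Ctbp1/2. All were sequenced from polyadenylated RNA without strand information. The siRNA sequences are not given in the sources used here, so an effect of the duplex on other transcripts and an effect of losing Ctbp1 cannot be told apart. Nothing in the labels says whether replicates came from separate mice, so the p-values measure the spread between these samples.

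CtBP1 and its paralog CtBP2 are NAD(H)-binding nuclear proteins that do not bind DNA by themselves. DNA-bound factors such as ZEB2 and KLF3 hold a short peptide motif that docks CtBP, which in turn brings histone deacetylases, histone methyltransferases and the demethylase LSD1 (Kdm1a) to the gene and lowers its transcription. In macrophages, CtBP proteins are studied as brakes on inflammatory genes. CtBP1 also has described roles in membrane fission outside the nucleus.

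Values are TPM, transcript levels corrected for transcript length and scaled to a common total per library, so a change is a change in share, and the depth behind each value is unknown. Controls had 12184 to 12259 genes at 1 TPM or more and Ctbp1 siRNA libraries 12135 to 12159, ranges that do not overlap (exact permutation test, two-sided, p = 0.10, the smallest that 3 against 3 allows). The part of this difference in the results was not tested. Libraries of a group correlated at 0.987 to 0.990 across genes, and libraries of different groups at 0.982 to 0.991, a range that spans the first. Summed macrophage markers such as Lyz2, Tyrobp and Csf1r took 34034 to 34608 TPM in controls and 33211 to 33846 TPM with Ctbp1 siRNA. These ranges again did not overlap (exact permutation test, p = 0.10, adjusted p = 0.35 over 14 such values). The mean of Lyz2 alone fell more, from 9222 to 7901 TPM, than that of the sum, from 34302.5 to 33601.6 TPM. Of the 24 markers tested as single genes, 4 were higher without overlap and 1 lower (16.7% and 4.17%). Over all tested genes these shares were 9.17% and 10.1%. Neutrophil markers summed to 110 to 174 TPM in controls and 108 to 143 TPM with the siRNA, with Elane at 0. Dendritic cell markers summed to 129 to 132 and 123 to 134 TPM, osteoclast markers to 92.8 to 96.5 and 93.6 to 107 TPM. Lymphocyte markers stayed under 4.88 TPM in sum in every library, with Cd8b1 and Ncr1 at 0, mast cell and basophil markers under 1.85 TPM and the 1 red cell marker with values under 1.10 TPM. Stromal markers summed to 0.621 to 0.978 TPM in controls and 0.374 to 0.536 TPM with the siRNA, with Col1a2, Lum, Pdgfra and Thy1 at 0. In bulk RNA, fewer cells of a type and less RNA per cell cannot be told apart.

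Ctbp1 was read first as the check of the labels. It stood at 143, 141 and 130.0 TPM in control replicates 1, 3 and 4, and at 59.4, 55.5 and 57.1 TPM with Ctbp1 siRNA. Every siRNA library was far under every control library, with 41.5% of the control mean left (log2 fold change −1.25, SE 0.065). The paralog Ctbp2 was at 52.0, 51.6 and 54.2 TPM in controls and 57.7, 56.0 and 50.3 TPM with Ctbp1 siRNA. Its groups overlapped, and its log2 fold change of 0.05 (95% confidence interval −0.13 to 0.24) was not called (adjusted p = 0.921).

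Beyond its target, Ctbp1 siRNA came with few and small changes at rest. Of 7918 genes tested with limma, 17 were called at an adjusted p under 0.05, 4 higher and 13 lower (0.0505% and 0.164% of the genes tested, 0.215% together). A tested gene had a median absolute log2 fold change of 0.060. Among the called genes only Ctbp1 changed 2-fold or more, and 3 changed 1.5-fold or more (Ctbp1, Fxyd2 and Rpsa-ps9). The called genes that fell encode an endoplasmic reticulum disulfide isomerase (Pdia3), the mitochondrial ADP/ATP carrier (Slc25a5), a sodium pump regulator (Fxyd2), a lectin-like receptor (Cd302), a kinase (Mapk6), a vesicle GTPase (Rab8b) and a proton pump subunit (Atp6v0d1). Also lower were the mitochondrially encoded cytochrome b (mt-Cytb), a ribosomal protein (Rps7), a nucleolar protein (Rsl1d1), 1110008P14Rik and the predicted gene Gm15590. The 4 that rose were Rac2, a GTPase of blood cells, Fkbp1a, the binding protein of FK506 and rapamycin, and 2 loci of pseudogene or predicted type, Rpsa-ps9 and Gm12918. In all 17 the groups did not overlap, which was also so for 19.2% of all tested genes.

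**Figure D1:**
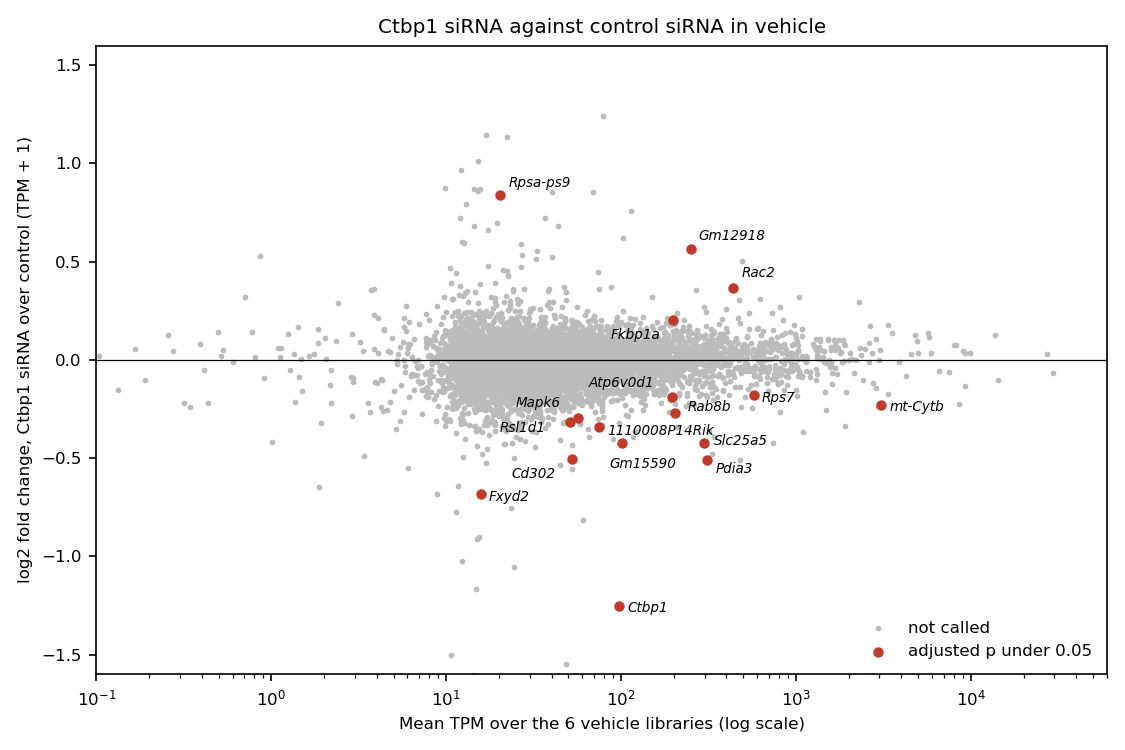
Each point is a tested gene, with its mean TPM over the 6 vehicle libraries on a log axis and the log2 fold change of Ctbp1 siRNA over control, computed on TPM plus 1, on the vertical axis. The 17 called genes are red and named, most genes lie close to 0, and 24 genes outside the axes are not drawn.

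The number of calls depended on the libraries in the fit. It was 5 without Ctbp1 siRNA replicate 1, 7 without its replicate 3 or 4, 7 without control replicate 1 or 4, and 19 without control replicate 3. Control LPS replicate 4 enters this comparison only through the common estimate of spread and the filter on mean TPM. Without it 43 genes were called, 15 higher and 28 lower, the 17 among them. With libraries scaled by the median of ratios to a common reference, 19 genes were called and the balance shifted to 10 higher and 9 lower (52.6% higher, against 23.5%). Ctbp1, Pdia3, Fxyd2, Slc25a5 and 1110008P14Rik kept their calls in each of the 16 alternatives, and none of the 17 changed sign in any.

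For 11 of the 17 called genes the RefSeq table on GRCm38.p6 holds the promoter, from 250 bases before to 50 after the start of the gene, 12 promoters in all. The 3 shown belong to Pdia3 and Slc25a5, the genes with the lowest p after Ctbp1 among those with an entry, and to Atp6v0d1, which like Slc25a5 holds both motifs that were searched. Capitals mark CACCTG, the site type bound by ZEB factors, and CACCC, that of KLF factors, each on either strand (so also CAGGTG and GGGTG). All are written 5′ to 3′ on the strand of the gene: Pdia3 at chr2:121413652-121413951 on the plus strand, Slc25a5 at chrX:36795347-36795646 on the plus strand and Atp6v0d1 at chr8:105566015-105566314 on the minus strand.
Pdia3: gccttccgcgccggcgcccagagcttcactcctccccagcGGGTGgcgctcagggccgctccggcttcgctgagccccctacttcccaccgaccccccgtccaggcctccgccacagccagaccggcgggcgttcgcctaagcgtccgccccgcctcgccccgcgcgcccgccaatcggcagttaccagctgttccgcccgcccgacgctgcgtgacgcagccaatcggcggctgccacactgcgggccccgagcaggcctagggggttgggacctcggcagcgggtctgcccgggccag
Slc25a5: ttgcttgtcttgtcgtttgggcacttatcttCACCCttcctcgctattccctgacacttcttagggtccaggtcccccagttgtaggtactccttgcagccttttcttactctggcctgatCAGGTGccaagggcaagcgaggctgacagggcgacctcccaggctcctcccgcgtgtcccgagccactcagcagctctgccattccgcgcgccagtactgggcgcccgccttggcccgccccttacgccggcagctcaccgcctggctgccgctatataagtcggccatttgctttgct
Atp6v0d1: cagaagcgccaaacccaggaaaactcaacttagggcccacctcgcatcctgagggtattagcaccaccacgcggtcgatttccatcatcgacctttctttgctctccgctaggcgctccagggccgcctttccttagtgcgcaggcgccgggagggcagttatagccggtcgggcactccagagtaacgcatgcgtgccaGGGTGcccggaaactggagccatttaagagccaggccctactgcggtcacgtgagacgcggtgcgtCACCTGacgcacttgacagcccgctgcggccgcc
CACCTG was present in 2 of the 12 promoters of called genes, against 20.2% of all 32851 promoters in the table. CACCC was present in 8 of the 12, against 57.5% of all. Neither motif contains the other. A match is a run of letters and not a measured site, and the TPM values carry no information on binding.

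Pdia3, a disulfide isomerase that folds glycoproteins in the endoplasmic reticulum and takes part in loading peptides on MHC class I, had the lowest adjusted p after Ctbp1. It was at 359, 368 and 365 TPM in control replicates 1, 3 and 4 and at 261, 254 and 250.5 TPM with Ctbp1 siRNA. The highest siRNA library was well under the lowest control library. The log2 fold change was −0.51 (95% confidence interval −0.58 to −0.44, adjusted p = 1.82e-07), with 70.1% of the control mean left. Ctbp2 siRNA libraries, which are a second siRNA in the same cells, read 377, 350.4 and 362 TPM, at the level of controls. No other member of the endoplasmic reticulum chaperone list was called. List counts here and below are over members with a mean of at least 10 TPM. Of 35 tested members, 1 was lower and 0 higher, and the median was −0.02, beside −0.00 over all tested genes. Calreticulin (Calr), which works with Pdia3 on glycoproteins, had a log2 fold change of −0.05 (adjusted p = 0.749), BiP (Hspa5) also −0.05 (0.838), Hsp90b1 −0.04 (0.826) and Erp29 0.01 (0.99). The MHC class I peptide loading list had 0 of 19 tested members called, with a median of −0.02, and its most abundant member B2m, the light chain of MHC class I, was at 0.14 (0.369).

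Slc25a5, an adenine nucleotide carrier of the inner mitochondrial membrane, was at 348, 346 and 328 TPM in controls. With Ctbp1 siRNA it read 256, 263 and 243 TPM. All 3 siRNA libraries were under all controls, at 74.5% of the control mean (log2 fold change −0.42, SE 0.048, adjusted p = 0.000256). Among 28 tested members of the Slc25 carrier family it was the 1 called, and the family median was −0.00. The authors' deposited table also calls Slc25a25 higher (0.33, adjusted p = 0.0291), which had an adjusted p of 0.107 here. Slc25a3, the phosphate carrier, had a log2 fold change of 0.01 (adjusted p = 0.978), and the uncoupling protein Ucp2 0.02 (0.956).

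Fxyd2 encodes the gamma subunit of the sodium pump, a regulator best known from kidney, and its level in these cells was low. It was at 20.2, 19.2 and 19.6 TPM in controls and 12.5, 11.6 and 11.5 TPM with Ctbp1 siRNA. The groups were far apart, and the log2 fold change of −0.68 (SE 0.077, adjusted p = 0.000256) was the largest fall among called genes after that of Ctbp1. It was the 1 called of 5 tested members of the sodium pump and FXYD list. Atp1b3, a beta subunit of the pump, was at 0.03 (adjusted p = 0.904), and Fxyd5, the abundant FXYD gene of these cells, at 0.10 (0.6).

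1110008P14Rik, a gene named here by its clone identifier, was at 79.3, 86.2 and 85.2 TPM in controls. Ctbp1 siRNA libraries were at 62.9, 67.9 and 66.5 TPM, all under the controls. The log2 fold change was −0.34 (SE 0.043, adjusted p = 0.000815), with 78.7% of the control mean left.

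Cd302, a C-type lectin receptor of phagocytes, was at 61.4, 62.9 and 60.4 TPM in controls. It read 42.4, 47.0 and 40.1 TPM with Ctbp1 siRNA, and the groups were clearly apart. Its log2 fold change was −0.51 (SE 0.089, adjusted p = 0.0287). The call was lost in 5 of the 6 fits that leave out one of these libraries, all but that without Ctbp1 siRNA replicate 3, with adjusted p from 0.0288 to 0.144 over the 6.

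The 2 called genes of vesicle and lysosome biology had smaller changes. Rab8b, a GTPase of the Rab8 pair that directs vesicles to the plasma membrane, was at 212, 232 and 223 TPM in controls and 181, 185 and 185 TPM with Ctbp1 siRNA. Its siRNA libraries lay close together under all controls (log2 fold change −0.27, SE 0.049, adjusted p = 0.0325). Of 36 tested Rab GTPases it was the 1 called, and the family's median was 0.02. Rab5c, of early endosomes, was at 0.15 (0.115), called without control LPS replicate 4 (0.0273), and Rab7, of late endosomes, at 0.00 (0.994). The authors' deposited table calls Rab5c higher (0.17, adjusted p = 6.06e-05). Atp6v0d1, a subunit of the membrane part of the proton pump that acidifies lysosomes, was at 206, 210.2 and 206 TPM in controls and 189, 181 and 175 TPM with the siRNA. All siRNA libraries were lower, by a log2 fold change of −0.19 (SE 0.036, adjusted p = 0.0422). Of 25 tested V-ATPase genes it was the 1 called, with a median of −0.01. Atp6v0c, the ring subunit, was at 0.07 (0.516) and Atp6v1b2, of the catalytic head, at 0.01 (0.969). The authors' deposited table calls Atp6v0c higher (0.09, adjusted p = 0.0475). Of 42 tested lysosomal enzyme and membrane genes 0 were called, and Ctsb, Ctsd and Psap, the most abundant, were between 0.03 and 0.07. Leaving out single libraries of these groups gave Rab8b an adjusted p from 0.0404 to 0.144, a call kept only without control replicate 1, and Atp6v0d1 one from 0.0509 to 0.161, never called.

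Rps7, a protein of the small ribosomal subunit, kept 88.2% of its control mean. It was at 615, 603 and 612 TPM in controls and 534, 537 and 542 TPM with Ctbp1 siRNA. No siRNA library reached a control (log2 fold change −0.18, SE 0.032, adjusted p = 0.0289), and without single libraries the adjusted p ran from 0.048 to 0.144, called only without control replicate 3. Of 82 tested cytosolic ribosomal protein genes it was the 1 called, with a median of −0.03. Ribosomal protein genes have many close copies in the genome, and reads shared with copies make their levels uncertain.

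Mapk6, the atypical kinase ERK3, was at 60.2, 63.4 and 65.1 TPM in controls. It was at 50.4, 53.2 and 49.7 TPM with Ctbp1 siRNA (log2 fold change −0.29, SE 0.044, adjusted p = 0.00673). Rsl1d1, which works in the nucleolus, was at 57.1, 58.5 and 55.4 TPM against 45.8, 48.5 and 42.8 TPM (−0.31, adjusted p = 0.0422). Both genes were lower in all 3 siRNA libraries than in any control. Without single libraries Mapk6 kept its call in 3 of 6 fits, losing it without control replicate 4 or without replicate 1 or 4 of the siRNA group, and Rsl1d1 kept it in 0.

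Rac2, the Rac GTPase of blood cells that drives actin remodelling and the phagocyte oxidase, was the abundant gene among those that rose. It stood at 386, 398 and 359 TPM in controls and at 503, 482 and 489 TPM with Ctbp1 siRNA. Every siRNA library exceeded every control, and the log2 fold change was 0.37 (SE 0.069, adjusted p = 0.0402). Fkbp1a, a prolyl isomerase, was at 181, 186 and 183 TPM against 211, 212 and 209 TPM, again with no overlap (0.20, SE 0.039, adjusted p = 0.0448). Without single libraries the adjusted p of Rac2 was 0.0485 to 0.153, called only without control replicate 3, and that of Fkbp1a 0.09 to 0.204, never called.

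The other called loci resemble or may share reads with other genes, so their values are uncertain. Rpsa-ps9, named as a pseudogene of the ribosomal gene Rpsa, was at 15.2, 14.3 and 13.6 TPM in controls and 26.1, 27.0 and 26.2 TPM with Ctbp1 siRNA (log2 fold change 0.84, adjusted p = 0.0422), while Rpsa itself was at 0.13 (0.34). Gm12918 was at 183, 223 and 197 TPM against 314, 311 and 269 TPM (0.57, adjusted p = 0.0374), and Gm15590 at 113, 115 and 119 TPM against 92.3, 87.9 and 77.9 TPM (−0.42, adjusted p = 0.0402). The groups of each were apart. Rpsa-ps9 and Gm15590 lost the call in all 6 fits without a single library, and Gm12918 in 4, all but those without Ctbp1 siRNA replicate 4 or control replicate 3.

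**Figure D2:**
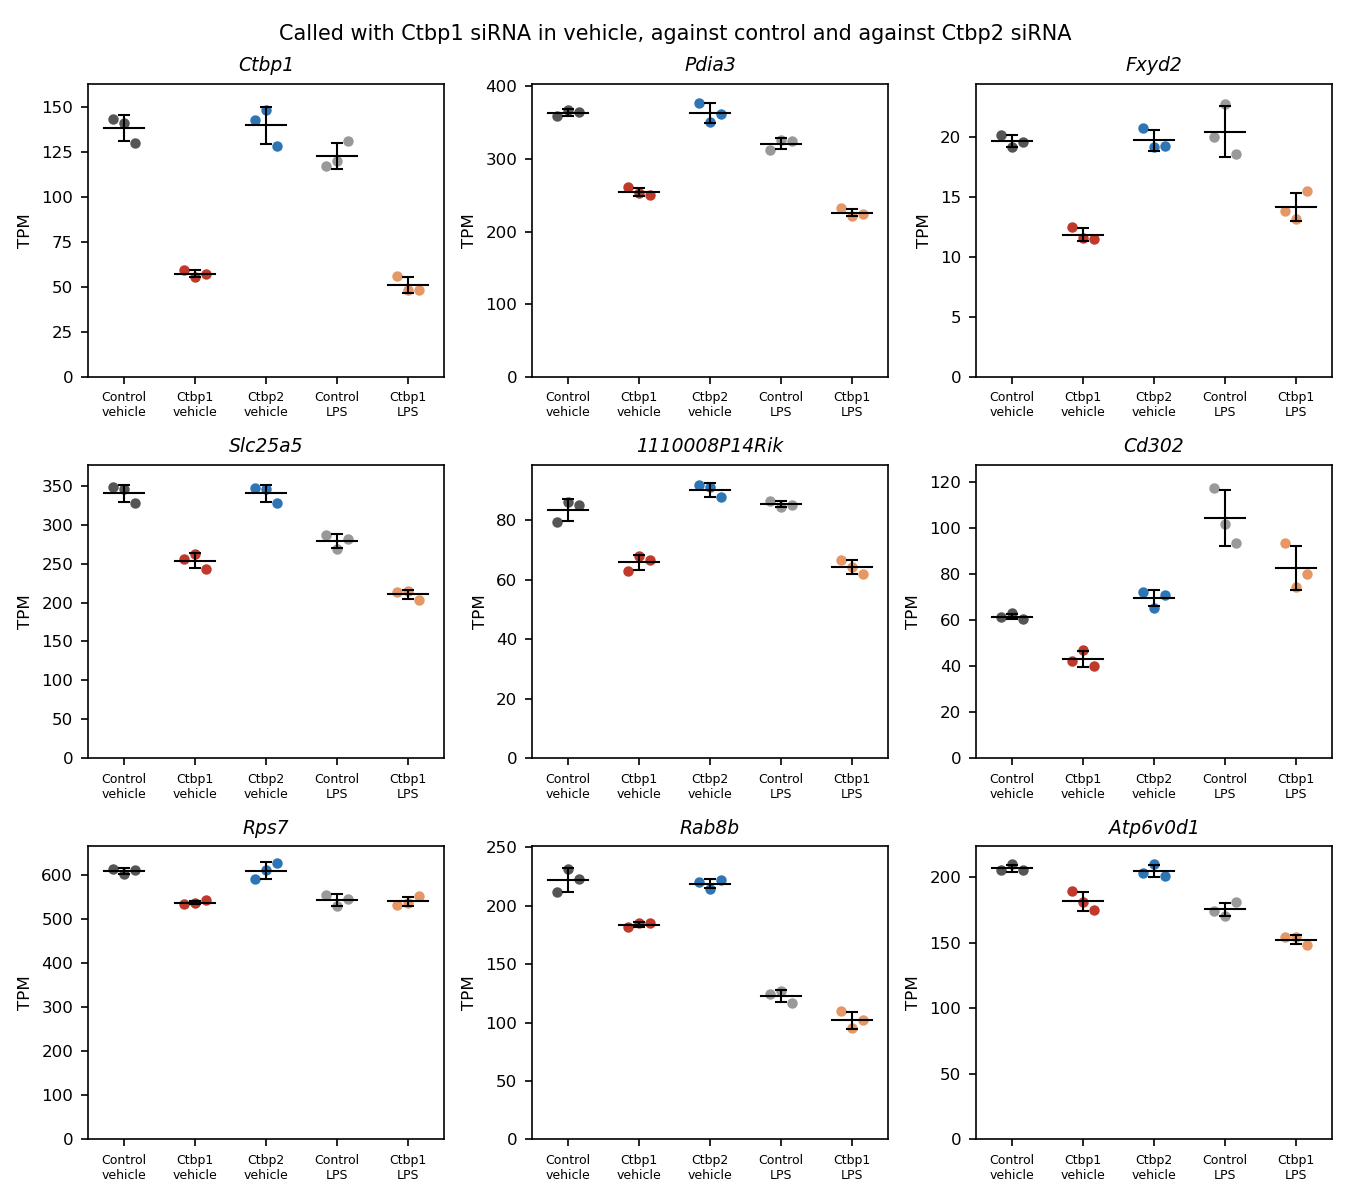
TPM of each library (points), with the group mean and SD (bars, n = 3), for the 9 genes called with Ctbp1 siRNA in vehicle both against control and against Ctbp2 siRNA. In each panel the 3 Ctbp1 siRNA vehicle libraries (red) lie under the control and the Ctbp2 siRNA vehicle libraries.

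Ctbp2 siRNA in vehicle gives a reference that uses no control library. The test against it gave 75 calls, of which 34 were higher with Ctbp1 siRNA and 41 lower (0.429% and 0.518% of those tested, 0.947% together), or 24 and 56 with median-of-ratios scaling. Leaving out Ctbp2 siRNA replicate 1 gave 35 calls and its replicate 4 gave 41. Leaving out Ctbp1 siRNA replicate 1, 3 or 4 gave 48, 36 and 39, and leaving out control LPS replicate 4 gave 157. Of the 17 genes called against control, 9 were among them: Ctbp1, Pdia3, Fxyd2, Slc25a5, 1110008P14Rik, Cd302, Rps7, Rab8b and Atp6v0d1. Ctbp1 siRNA libraries enter both comparisons, so the second is not an independent repeat. Pdia3 differed by −0.51 (adjusted p = 1.34e-07), Slc25a5 by −0.42 (0.000153), Fxyd2 by −0.69 (0.00014) and 1110008P14Rik by −0.45 (2.15e-05). For Cd302 the difference was −0.68 (0.000684), with Ctbp2 siRNA libraries at 72.0, 65.4 and 70.9 TPM, above the controls. The differences of Rps7, Rab8b and Atp6v0d1 were −0.18 (0.00942), −0.25 (0.0185) and −0.17 (0.0272).

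The other 8 called genes were not called between the siRNAs. For mt-Cytb the Ctbp2 siRNA libraries were at 2811, 2895 and 2820 TPM, the level of the Ctbp1 siRNA libraries (difference −0.01, 95% confidence interval −0.10 to 0.07, adjusted p = 0.945). Mapk6 was at 56.0, 54.6 and 56.2 TPM with Ctbp2 siRNA, between the other groups (difference −0.12, interval −0.21 to −0.03, 0.27). Rac2 was at 406, 452 and 433 TPM, again between them (0.19, interval 0.05 to 0.34, 0.248). Fkbp1a differed by 0.10 (interval 0.02 to 0.19, 0.283), Rsl1d1 by −0.20 (−0.32 to −0.07, 0.159) and Gm15590 by −0.32 (−0.48 to −0.15, 0.0713). Gm12918 and Rpsa-ps9 differed by 0.11 (−0.11 to 0.33, 0.748) and 0.21 (−0.13 to 0.55, 0.675). A missed threshold does not show that the siRNAs act alike, and controls shared by both siRNAs enter the calls that chose these genes.

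**Figure D3:**
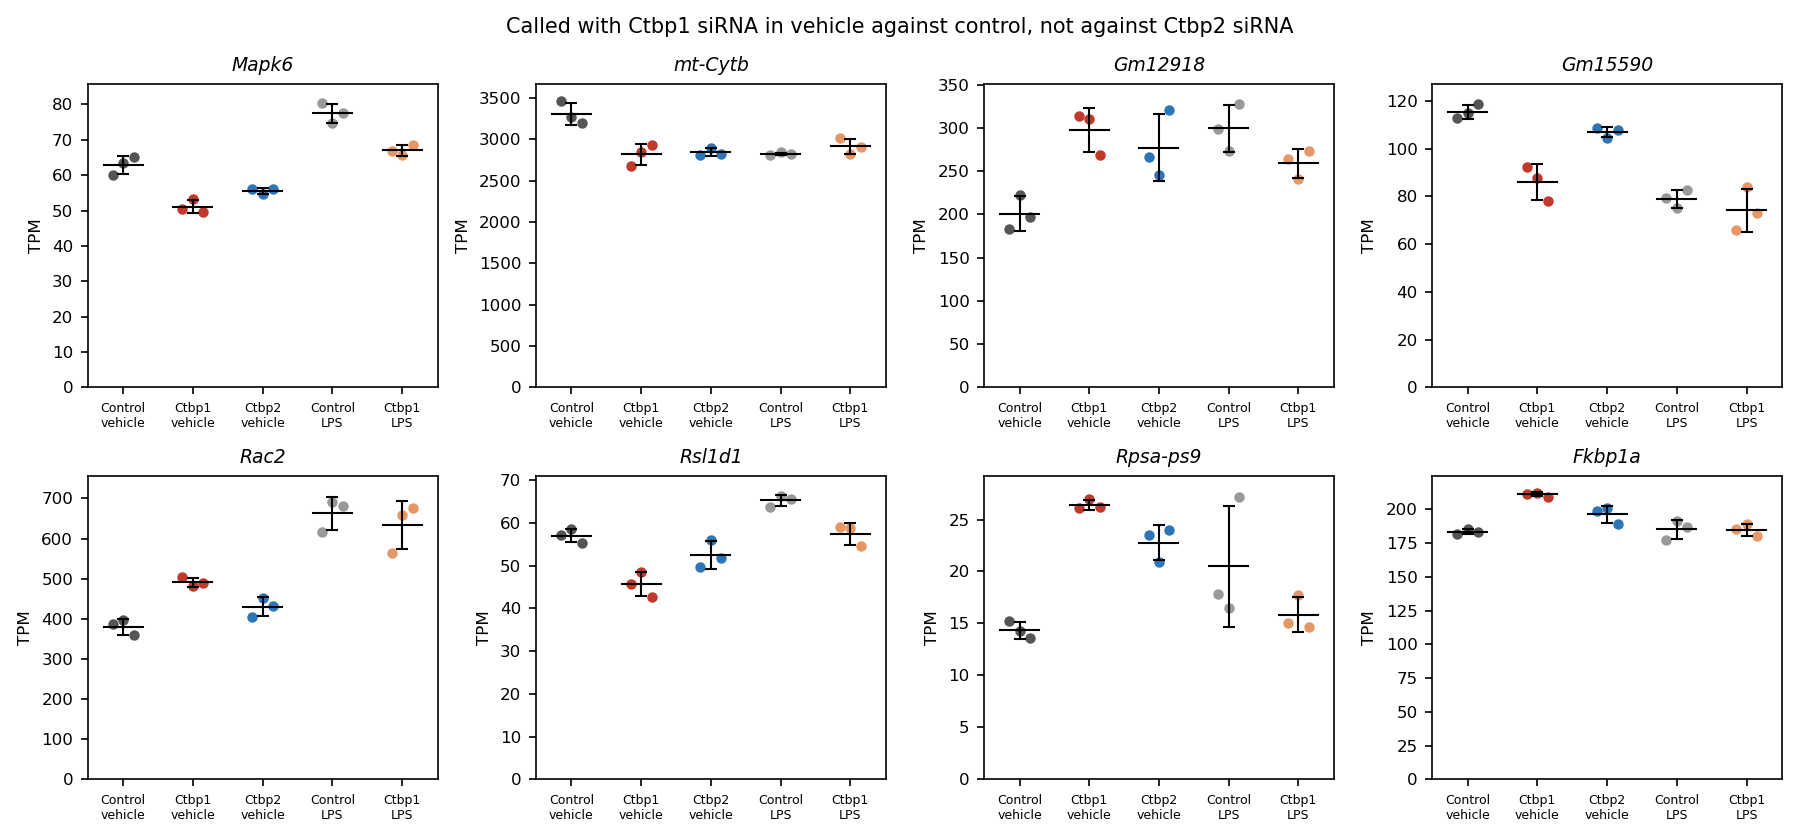
TPM of each library (points), with the group mean and SD (bars, n = 3), for the 8 genes called with Ctbp1 siRNA in vehicle against control but not against Ctbp2 siRNA. For mt-Cytb the Ctbp1 and Ctbp2 siRNA vehicle libraries lie at one level under the vehicle controls, and for Mapk6 and Rac2 the Ctbp2 siRNA libraries lie between the other vehicle groups.

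Several genes differed between the siRNAs without a call against control. Ctbp2 itself was higher by 1.54 (adjusted p = 1.67e-08), the knockdown of Ctbp2 in the other group. Cd28, a co-stimulatory receptor, differed by 0.70 (0.00942) and by 0.10 against control (0.89). Nfe2l1, a transcription factor of proteasome genes, differed by 0.56 (0.00405) and by 0.18 against control (0.516). Lower with Ctbp1 than with Ctbp2 siRNA were the interferon-induced genes Ifit2 (−0.78, 0.00942) and Ifit3 (−0.79, 0.0222), which were at 0.09 (0.905) and 0.11 (0.898) against control. Ifitm6, of the interferon-induced transmembrane family, was lower by −0.84 (0.00213), and against control by −0.49 without a call (0.115), with libraries at 16.4, 15.8 and 12.1 TPM in controls and 11.8, 9.28 and 9.46 TPM with Ctbp1 siRNA.

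LPS libraries of the same siRNA give values that the resting comparison did not use, although both enter 1 estimate of spread. With LPS the siRNA gave 12 calls against control (0.152%), 2 higher and 10 lower (0.0253% and 0.126%), or 0 and 10 with median-of-ratios scaling. There were 6 or 7 calls without replicate 1 or 3 of either LPS group, and 133 without control LPS replicate 4. Of the 12, 7 were called at rest too: Ctbp1, Pdia3, Fxyd2, Slc25a5, 1110008P14Rik, Rab8b and Atp6v0d1. Pdia3 was at 312, 326 and 325 TPM in LPS controls and 232, 222 and 225 TPM with Ctbp1 siRNA, 70.4% of the control mean. Slc25a5 was at 75.4%, 1110008P14Rik at 75.1%, Rab8b at 83.4% and Atp6v0d1 at 86.8% of the LPS control mean, beside 74.5%, 78.7%, 82.8% and 87.7% at rest. Rab8b itself was lower with LPS in controls (124, 127 and 117 TPM), and the siRNA libraries were lower again (110, 95.1 and 102 TPM). Fxyd2 was at 69.4% with LPS and 60.3% at rest.

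The remaining 10 called genes had no call with LPS. Rps7 was at 99.4% of the LPS control mean, Fkbp1a at 100.0% and mt-Cytb at 103%. Rac2, which was at 616.5, 692 and 680 TPM in LPS controls, was at 565, 659 and 676 TPM with Ctbp1 siRNA, in overlapping groups. Mapk6 was at 86.4% with LPS (adjusted p = 0.126), Rsl1d1 at 88.1% (0.426) and Cd302 at 79.3% (0.292). Rpsa-ps9 and Gm12918 were at 77.2% and 86.5%, under control, although above it at rest. Among LPS controls Rpsa-ps9 was at 17.9, 16.5 and 27.2 TPM, with replicate 4 far above the others.

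The difference between the effect of Ctbp1 siRNA with LPS and at rest was tested as an interaction. Of 7918 genes 1 was called (0.0126%), Rps12, at 0.45 (SE 0.068, adjusted p = 0.0412), and 0 of the 17 genes called at rest were. Rps12 lost its call without any single library of the 4 groups other than control LPS replicate 4, without which 9 genes were called. An unadjusted p under 0.05 was reached by 520 of the 7918 genes. With no difference in any gene, a share of 0.05 would be expected to reach it. For Pdia3 the difference was 0.01 (95% confidence interval −0.09 to 0.11), for Slc25a5 0.02 (−0.13 to 0.16), for Atp6v0d1 −0.01 (−0.12 to 0.10) and for Fxyd2 0.19 (−0.04 to 0.42). Those of Rac2 (−0.44, −0.64 to −0.23, adjusted p = 0.216), mt-Cytb (0.28, 0.15 to 0.40, 0.144) and Rpsa-ps9 (−1.16, −1.65 to −0.68, 0.144) were larger but did not pass the threshold. These genes were chosen by their calls at rest, and the same resting libraries enter the interaction with the opposite sign. A difference against the resting direction, as each of them had, is therefore partly built in by the choice.

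**Figure D4:**
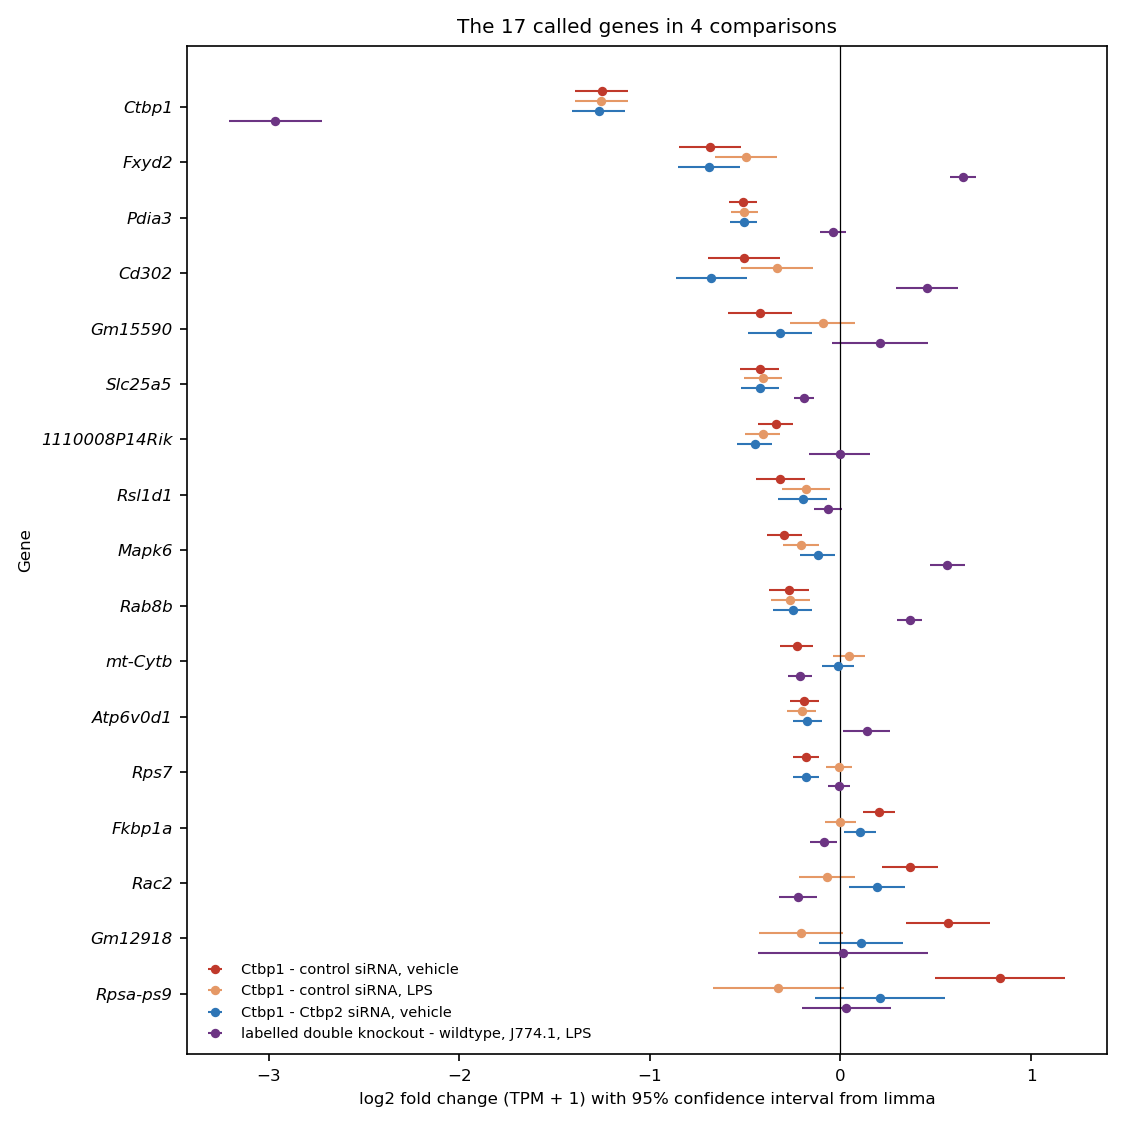
Log2 fold change with its 95% confidence interval from limma for the 17 called genes, with Ctbp1 siRNA against control in vehicle (red) and in LPS (orange), against Ctbp2 siRNA in vehicle (blue), and for libraries labelled double knockout against wildtype in J774.1 cells with LPS (purple). Pdia3, Slc25a5, 1110008P14Rik, Rab8b and Atp6v0d1 have the same sign and similar size in the 3 siRNA comparisons, while in the libraries labelled double knockout Fxyd2, Cd302, Mapk6 and Rab8b are above 0.

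J774.1 cells labelled as lacking both paralogs form a separate experiment, in a cell line, with LPS and in a table normalized on its own. They are set beside the siRNA values with no test of the difference. Ctbp1 was at 19.9 ± 3.30 TPM in the libraries labelled double knockout and 161 ± 3.81 TPM in wildtype (SD, n = 3). Ctbp2 was at 64.1, 61.5 and 63.6 TPM against 81.4, 74.4 and 78.7 TPM (−0.31, adjusted p = 0.000723), so most of its mRNA was present under that label. All 17 genes were tested there, where 42% of all tested genes were called (25.4% higher and 16.6% lower, or 1496 and 2015 genes with median-of-ratios scaling). Ctbp1, Slc25a5 and mt-Cytb were called in the same direction as with the siRNA, 6 in the opposite direction, and 8 were not called. Slc25a5 was lower by −0.19 (adjusted p = 0.000246), at 1065 ± 8.98 against 1217 ± 19.8 TPM (SD, n = 3). Pdia3 was at 512 ± 12.1 TPM in the libraries labelled double knockout and 526 ± 11.9 TPM in wildtype (−0.04, 95% confidence interval −0.11 to 0.03, adjusted p = 0.307). Fxyd2, at 561 ± 10.8 TPM in wildtype J774.1 cells, was higher under the double knockout label at 877 ± 24.9 TPM (0.64, 6.06e-07). Mapk6 (0.56, 9.12e-06), Cd302 (0.45, 0.0011) and Rab8b (0.36, 1.81e-05) were higher too, and Rac2 (−0.22, 0.00393) and Fkbp1a (−0.09, 0.0475) lower.

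The mitochondrially encoded genes, 13 protein-coding genes of the respiratory chain transcribed inside the organelle, had the lowest median of the 27 pathway lists. Of the 13, 1 was called lower and 0 higher, and the median was −0.17. The authors' deposited table calls 4 of the 13 lower and 0 higher, beside 0.609% and 1.11% of all its genes with a value. Among the 4 are mt-Cytb (0.000333) and mt-Nd1 (3.55e-06). Estimates were under 0 for 11, beside 4065 of all 7918 tested genes. In 9 of the 13 (69.2%) all Ctbp1 siRNA libraries were under all controls, against 10.1% of all tested genes. The called mt-Cytb, of complex III, was at 3458, 3262 and 3191 TPM in controls and 2675, 2849 and 2927 TPM with Ctbp1 siRNA (log2 fold change −0.23, SE 0.040, adjusted p = 0.0287). mt-Nd1, of complex I, was at 3651, 3490 and 3474 TPM against 3033, 3168 and 3212 TPM (−0.17, adjusted p = 0.0682), called without control LPS replicate 4 (0.0273). Control replicate 1 was the highest and siRNA replicate 1 the lowest of the libraries for both. mt-Atp8, of the ATP synthase, went the other way at 0.13 (0.436). Together the 13 genes took 5.15%, 4.83% and 4.84% of TPM in controls and 4.45%, 4.75% and 4.84% with the siRNA (exact permutation test, two-sided, p = 0.3, adjusted p = 0.525 over 14 such values). The median against Ctbp2 siRNA was −0.01, and mt-Nd1 was at 3152, 3239 and 3223 TPM there. Without single libraries the median lay between −0.20 and −0.15, and mt-Cytb lost its call without control replicate 1 or Ctbp1 siRNA replicate 1 or 3, with adjusted p from 0.0334 to 0.144 over the 6. With median-of-ratios scaling the median was −0.15, mt-Cytb was not called and mt-Nd1 was.

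The nuclear genes of the same respiratory complexes did not share that direction. Of 79 tested 0 were called and the median was 0.03. Estimates were above 0 for 54, beside 3850 of all 7918 tested genes. In 15 of the 79 (19.0%) all siRNA libraries exceeded all controls, against 9.17% of all tested genes. Cox5b, a subunit of cytochrome oxidase, was at 254, 259 and 297 TPM in controls and 316, 338 and 320.3 TPM with Ctbp1 siRNA (0.27, adjusted p = 0.169). Cox6a1 was at 0.19 (0.118), and was called without control replicate 3 (0.0327). The authors' deposited table calls 5 of the 79 higher and 0 lower, beside 1.11% and 0.609% of all its genes with a value. Cox5b (0.0135) and Cox6a1 (0.0239) are among the 5. The median was 0.00 without Ctbp1 siRNA replicate 1, and 0.05 without its replicate 4.

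CtBP partners, and genes described as repressed by CtBP in other cells, gave no call apart from Ctbp1. Of 18 tested genes of the paralogs, the complex and its recruiting factors, Ctbp1 was the 1 called, with a median of −0.00. Kdm1a, the LSD1 demethylase, was at −0.07 (adjusted p = 0.749), Hdac1 at −0.00 (0.995), Ehmt2, the methyltransferase G9a, at −0.06 (0.784) and Zeb2, a DNA-bound partner, at −0.02 (0.962). Of 8 tested genes described as repressed by CtBP in other cells, such as Bax (−0.07, 0.55) and Cdkn1a (0.03, 0.967), 0 were called. Their median was −0.05, and in 2 of the 8 (25%) all siRNA libraries were under all controls, against 10.1% of all tested genes. Whether these genes are CtBP targets in macrophages was not tested.

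KLF factors include Klf3, which was isolated as a CtBP-binding repressor and acts on CACCC sites. Of 7 tested 0 were called and the median was 0.11. Estimates were above 0 for 6, beside 3850 of all 7918 tested genes. Klf3 was at 22.8, 24.6 and 23.1 TPM in controls and 27.5, 26.3 and 28.5 TPM with Ctbp1 siRNA. Its groups did not overlap, but the log2 fold change of 0.22 (SE 0.084) did not pass the threshold (adjusted p = 0.378). Klf6, the most abundant, was at 182, 192 and 188 TPM against 195, 201 and 201 TPM (0.09, 0.775). Klf10 was at −0.08 (0.906). Against Ctbp2 siRNA the median was 0.03.

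Of 30 tested NF-kB subunits, inhibitors and feedback genes 0 were called, and the median was −0.06. Estimates were under 0 for 22, beside 4065 of all 7918 tested genes. Nfkbiz, a nuclear IkB protein, was at 10.5, 9.44 and 9.55 TPM in controls and 7.98, 7.33 and 7.90 TPM with Ctbp1 siRNA, with no overlap. Its log2 fold change was −0.31 (SE 0.074, adjusted p = 0.108), called without control LPS replicate 4 (0.0273). It averaged 9.83 TPM in resting controls and 320 TPM in LPS controls, and was tested only through the LPS libraries. The fit of the 6 libraries leaves it out, and tested 28 genes of the list with 0 called. The authors' deposited table gives Nfkbiz an adjusted p of 0.15. Rela, the p65 subunit, was at 0.10 (0.696) and Zfp36, which destabilizes cytokine mRNA, at −0.06 (0.823). Cytokine and chemokine members reach the mean of 10 TPM partly through the LPS libraries, as Il27 at 1.30 TPM in resting controls and 190 TPM in LPS controls, so their counts say little of rest. Of 14 tested cytokines and 17 chemokines 0 were called, and of these kinds only 6 and 10 averaged 10 TPM in the 6 resting libraries, where 0 were called too and the medians were −0.02 and 0.01. Of 15 tested immediate early genes 0 were called, with a median of 0.03. Tgfb1, a cytokine that restrains macrophages, was at 329.9, 350.5 and 349.7 TPM in controls and 360, 382 and 371 TPM with the siRNA (0.11, 0.45). The authors' deposited table calls Tgfb1 higher (0.13, adjusted p = 0.0257). Ccl5, which attracts T cells, was at 8.29, 7.81 and 9.55 TPM against 10.0, 9.82 and 13.1 TPM, at 0.32 without a call (0.529).

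Interferon-stimulated genes, which cells switch on after sensing viral or foreign RNA, are a check on a response to siRNA duplexes. Of 51 tested 0 were called against control and the median was 0.02. Ly6e was at 0.16 (adjusted p = 0.801), Oasl2 at 0.08 (0.893) and Mx1 at −0.40 (0.545). Control cells also received an siRNA, so a response common to all duplexes would not appear in this comparison. Against Ctbp2 siRNA 5 of the 51 were lower and 0 higher, beside 0.518% and 0.429% of all tested genes. Among the 5 are Ifit2, Ifit3, Rtp4 and Xaf1 (Rtp4 and Xaf1 were named after their values were seen). The median against Ctbp2 siRNA was −0.28, beside 0.03 over all tested genes. None of these genes was called between Ctbp1 siRNA and control. Of 23 tested RNA sensors and RNA interference genes 0 were called, with a median of −0.01.

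Among macrophage identity genes the abundant lysozyme gene was called lower only in the fit of the 6 libraries alone. Of 24 tested identity genes 0 were called, with a median of −0.01. Lyz2, the macrophage lysozyme, was at 9285, 8953 and 9427 TPM in controls and 7587, 8134 and 7983 TPM with Ctbp1 siRNA. It was lower in all 3 libraries but not called (−0.22, adjusted p = 0.347), although called in the fit of the 6 libraries alone (0.038). The authors' deposited table does not call it (0.386). Lgals3 was at 0.03 (0.812) and the scavenger receptor Cd36 at 0.09 (0.681). In the list of cholesterol, LXR and fatty acid genes 0 of 24 were called, with a median of 0.04. Fabp4, a fatty acid chaperone, came nearest, at 87.9, 90.6 and 83.6 TPM against 70.7, 68.2 and 68.4 TPM (−0.33, 0.0745), and was called in the fit of the 6 libraries alone (0.0264). Against Ctbp2 siRNA it was at 0.00 (0.992).

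Of the remaining lists 0 members were called in the fit of all BMDM libraries. Ankrd37, a hypoxia response gene, was called in the fit of the 6 libraries alone. The lists cover MHC class II and co-stimulation (10 tested, median −0.02), glycolysis and hypoxia (21, 0.01), NRF2 antioxidant genes (21, 0.01), heat shock chaperones (17, 0.02), cell cycle and DNA replication (32, 0.01) and the integrated stress response (14, 0.02). The last holds 2 rows named Ddit3. One of them, read at 363 TPM in Ctbp1 siRNA replicate 3 and listed at 0 in the other 5 libraries, says nothing of a change.

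**Figure D5:**
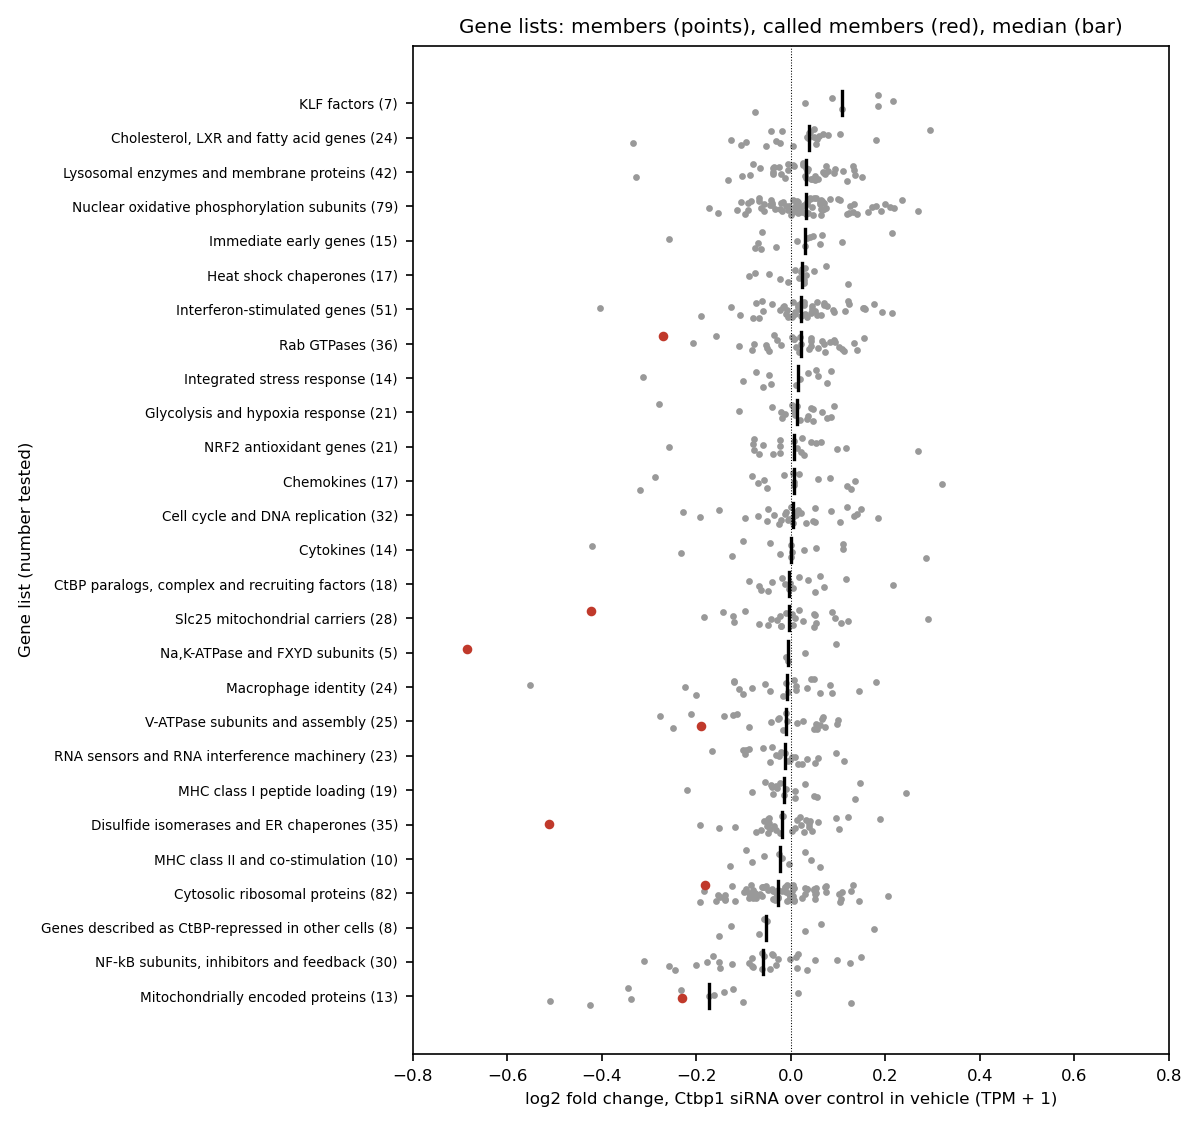
Log2 fold change of Ctbp1 siRNA over control in vehicle for each tested member (points) of 27 gene lists, with called members in red and the list's median as a black bar. Mitochondrially encoded genes have the lowest median, KLF factors the highest, and 3 members beyond the axis are not drawn.

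Fits and tables made in other ways call more genes in the same 6 libraries. Fitted alone, they gave 35 called genes of 8147 tested, 14 higher and 21 lower (0.172% and 0.258%, 0.43% together), 13 of them among the 17. The authors' deposited table gives 127 genes at an adjusted p under 0.05 of 7390 with a value (1.72%), 82 higher and 45 lower (1.11% and 0.609%). Of these 126 were tested here, each had the same sign in both, and 15 were also called here. Fxyd2 and Rpsa-ps9 have no adjusted p in the authors' deposited table. In the authors' deposited table Pdia3 is at a log2 fold change of −0.49 (adjusted p = 1.88e-28) and Slc25a5 at −0.40 (1.21e-09).

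Some genes were called against control at rest only by these ways of testing. Eif2b2, Xkr8 and Fgfr1 were named by a rule that asks for groups without overlap. Their separation was therefore fixed by the choice, and groups did not overlap for 19.2% of all tested genes. Cerk, which phosphorylates ceramide, was at 137, 127 and 133 TPM in controls and 99.4, 105 and 97.0 TPM with Ctbp1 siRNA. Its log2 fold change of −0.39 missed the threshold (adjusted p = 0.0686) but passed in the fit of the 6 libraries (0.0164). It was called against Ctbp2 siRNA (−0.38, 0.0351) and with LPS (−0.61, 0.00221). Reep5, which shapes the endoplasmic reticulum membrane, was at 360, 361 and 370 TPM in controls and 426, 440 and 440 TPM with the siRNA (0.26, adjusted p = 0.0543, and 0.0164 in the fit of the 6 libraries). Shisa5, a membrane protein of the endoplasmic reticulum, was at 0.21 (0.0988, and 0.0344 in the fit of the 6 libraries). Eif2b2, a subunit of the exchange factor of translation initiation, was at 50.0, 53.5 and 56.0 TPM against 35.6, 40.9 and 33.1 TPM (−0.53, adjusted p = 0.106, and 0.0386 in the fit of the 6 libraries). Xkr8, a lipid scramblase, was at 4.23, 4.78 and 3.42 TPM against 2.45, 2.94 and 2.55 TPM (−0.49, adjusted p = 0.057), with an adjusted p of 0.000885 in the authors' deposited table. The growth factor receptor Fgfr1 was at 21.7, 21.7 and 18.3 TPM against 26.1, 27.9 and 22.7 TPM (0.30, 0.259), with an adjusted p of 0.034 in the authors' deposited table.

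Other genes called in that fit or that table are short loci or resemble other genes. Mir8114, a microRNA gene too short to be measured well in such libraries, is listed at 0 TPM in all 3 controls and at 106, 35.6 and 53.4 TPM with Ctbp1 siRNA. Its adjusted p was 0.14, and 0.00102 in the fit of the 6 libraries. Fth1-ps, named as a ferritin pseudogene, was at 92.0, 77.1 and 82.2 TPM against 139, 165 and 125 TPM (0.76, adjusted p = 0.107), while its parent Fth1 was at 0.03 (0.905). Commd1b was at 7.91 ± 1.85 TPM against 16.3 ± 2.98 TPM (SD, n = 3) (0.97, adjusted p = 0.137). Gm48275 was at 384, 377 and 398 TPM against 277, 274 and 279 TPM (−0.48, 0.0745), and it was at −0.11 (0.745) against Ctbp2 siRNA.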

How the data were processed

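The deposited tables of the authors hold TPM per gene and library. The BMDM values were made with Salmon at gene level on mm39, per the file headers, and the build of the J774.1 table is not given in the sources used here. Per the submitters' processing notes, FastQC, Salmon 1.9.0, DESeq2 1.44.0 and R 4.4.1 were used, with builds mm39, GRCm38 and GRCm39. The value columns of the BMDM table are named scaled TPM. The authors' deposited table for this comparison also gives log2 fold changes and adjusted p-values, used only where it is named, and a mean normalized signal per gene, which is not printed. TPM keeps no read depth, so counting error is unknown, and no floor or interval on counts can be given. The 6 libraries summed to 999840 to 999943 TPM over 22996 genes.

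Here limma 3.58.1 in R 4.3.3 (lmFit, eBayes with trend and robust) was run on log2(TPM + 1) where a gene averaged 10 TPM or more. The model had a coefficient for each of the 6 BMDM groups over 18 libraries, and J774.1 cells were fitted separately. Fold changes on that scale understate changes of low genes. Calls needed a p under 0.05 after Benjamini-Hochberg adjustment over all genes tested, and every adjusted p in the text is limma's unless another source is named. Single values were compared by an exact permutation test. The procedure was tested on simulated data. Members and gene lists were chosen with earlier results of these data known.

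Genes were named by a rule: Ctbp1 and Ctbp2, every called gene, the called, the 4 most abundant and the most changed members of each list, the 8 largest changes in each direction of the authors' calls with at least 1 TPM and no overlap, the 8 lowest p in each direction in the fit of the 6 libraries, and up to 8 in each direction of the interaction and of Ctbp1 against Ctbp2 siRNA. Not all are described, some genes of the lists are not reported here, and other genes named from lists were chosen after their values were seen. Promoter sequences come from RefSeq on GRCm38.p6, and no coordinates of the deposited tables were used with them. Alternatives were other pseudocounts, filters, scaling, spread estimates, a replicate block, the compared groups alone, and leaving out libraries. Figures were drawn with matplotlib 3.10.9 in Python 3.11.15.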

Additional observations from a re-analysis of the deposited data

Results flagged for a closer look

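Rps12, a ribosomal protein gene with many close copies, had an effect of Ctbp1 siRNA that differed between LPS and rest by 0.449946 on the log2 scale in the interaction test (adjusted p = 0.0412). It was at 1043, 1112 and 1093 TPM in resting controls and 972, 920 and 968 TPM with Ctbp1 siRNA, and with LPS at 790.0, 734 and 785 TPM against 931, 952 and 894 TPM. The call was lost without any single library of these groups other than control LPS replicate 4.

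Rpl17-ps9, named as a ribosomal pseudogene, was picked because its groups lay apart in opposite directions at rest and with LPS. That pattern was fixed by the choice and is no support for a difference. At rest alone the groups did not overlap for 19.2% of all tested genes. Rpl17-ps9 was at 13.2, 17.1 and 13.5 TPM in resting controls and 6.95, 7.25 and 7.33 TPM with Ctbp1 siRNA. With LPS it was at 8.07, 7.58 and 6.55 TPM against 8.59, 11.9 and 11.6 TPM. The effects differ by 1.39 on the log2(TPM + 1) scale, and the difference was not tested, since the gene is under the minimum level of the fit. Read sharing with close copies was not tested for either gene.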

How the results depend on the processing

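Calls with Ctbp1 siRNA in vehicle numbered 17, and 7 (0 higher) without trend and robust estimation, 34 with the replicate block, 35 with only the compared groups, 27 after median-of-ratios factors taken from tested genes only (chosen after seeing the data), and 5 to 43 without single libraries. Against Ctbp2 siRNA the 75 calls became 160 with the block, 36 with only the compared groups and 35 to 157 without single libraries. With LPS the 12 calls became 7 at a mean of at least 1 TPM, 2 with only the compared groups and 6 to 133 without single libraries. The single interaction call was 0 at a mean of at least 1 TPM, with either median-of-ratios scaling, without trend and robust estimation and with the block, 3 with no filter, and 0 to 9 without single libraries. Of the counts without single BMDM libraries, each highest came without control LPS replicate 4. Calls in J774.1 cells were 3272, and 2774 to 3069 without single libraries; with no filter that fit gave no value. The labels do not say whether the replicate numbers mark a shared preparation, and the main fits did not pair them. Deviations of same-numbered vehicle libraries correlated at 0.28, 0.081 and 0.15, not all over 0.1. Each library correlated best with its own number, a hint of pairing from the data that does not settle the design. The block kept all 17 resting calls and added, among list members, Slc25a25 (higher), mt-Nd1 (adjusted p = 0.0398) and Fabp4 (0.0496). No named gene changed from a call to the opposite sign. Depth is unknown, and 3 libraries a group limit the precision.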
